A study of Mus musculus with 17 samples.

Results

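Upper-layer cortical spots of mouse brain sections are described here, as the 150 spots of each of 3 spatial transcriptomic sections with the highest counts of Lamp5, Rasgrf2 and Cux2. They make up 450 of the 7807 spots that held at least 1000 counts, out of 7827 spots in all. The remaining 7357 spots (2637, 2381 and 2339 in sections 2, 5 and 6) are called the other spots, and they cover all other tissue on the slides, thalamus included. The series also holds single cells harvested by hand from the anterior thalamic nuclei, which are not used here. All 3 sections came from WT mouse brain that was flash-frozen, cut at 10 µm, stained for the neuronal marker NeuN and with DAPI, and permeabilized for 24 min before capture. Section 5 was labelled anterior, and sections 2 and 6 were labelled posterior. The strain and age of the sectioned animals are not given in the sources used here, nor is it stated whether the sections came from separate animals, so the p-values below measure the spread between sections. A spot is a small captured region that can hold several cells of different types or parts of cells, and fewer cells of a type and less RNA per cell cannot be told apart in such counts.

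The neocortex is built of stacked layers of neurons. The cells of layers 2 and 3 are mostly excitatory pyramidal neurons that send axons to other cortical areas, those of layer 4 receive the main input from the sensory thalamus, and those of layers 5 and 6 project to subcortical targets and back to the thalamus. Layer 1, at the surface under the meninges, holds few neurons and many dendrites. Of the genes in the rule, Cux2 encodes a homeobox transcription factor of upper-layer neurons, Lamp5 a membrane protein of the LAMP family that is found in upper-layer neurons and in a class of interneurons, and Rasgrf2 an exchange factor that activates Ras.

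Spots were ranked by the mean of the log1p counts per 10000 of Lamp5, Rasgrf2 and Cux2, so the levels of these genes describe the choice and are not a result. The score of rank 150 and of the rank after it was 1.267 and 1.267 in section 2, 1.174 and 1.171 in section 5, and 1.106 and 1.102 in section 6. The curve of score against rank had no step at that rank, and the cut therefore falls within a continuous range of spots. Lamp5 stood at 688, 662 and 655 CPM (counts scaled to the same total) in the upper-layer spots of sections 2, 5 and 6, against 144, 115 and 103 CPM in the other spots, and all values below follow this order of sections. Rasgrf2 stood at 349.9, 329 and 314 CPM in upper-layer spots, against 79.4, 68.0 and 65.3 CPM in the other spots. Cux2 stood at 185, 200.043 and 169 CPM in upper-layer spots, against 31.2, 34.1 and 28.3 CPM in the other spots. The choice rests on few counts per spot: in section 2 the median upper-layer spot held 7 counts of Lamp5, 3 of Rasgrf2 and 2 of Cux2.

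**Figure D1:**
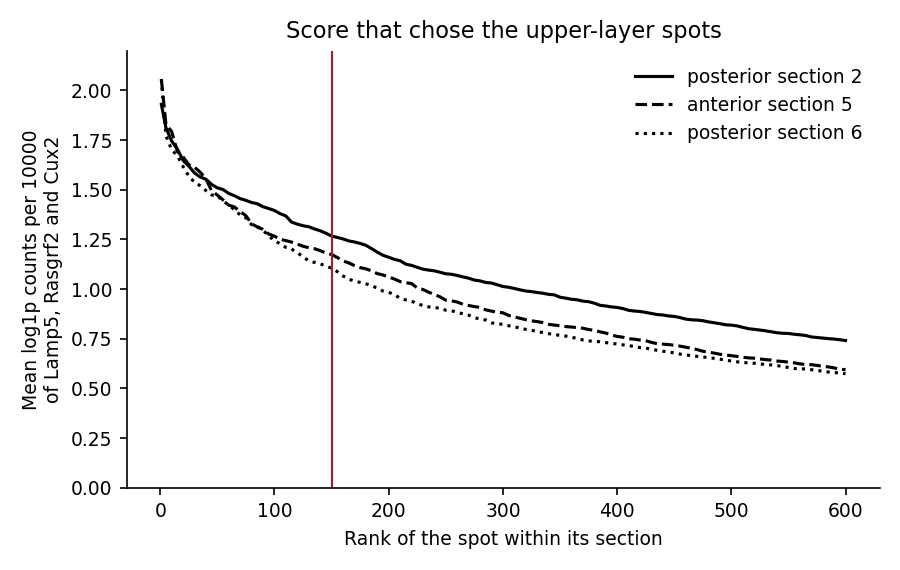
Score (mean log1p counts per 10000 of Lamp5, Rasgrf2 and Cux2) against the rank of the spot in each section, with the cut at rank 150. The score falls without a step through the cut, and the 150 spots left of it in each section are the upper-layer spots.

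To see whether the 3 genes marked the same spots, 150 spots were chosen in each section by 2 of them and the third was read out. Lamp5 was 2.78, 2.71 and 3.87 times as high in spots chosen by Rasgrf2 and Cux2 as in the remaining spots (mean ratio 3.12 ± 0.652, SD, n = 3 sections). Rasgrf2 was 2.96, 3.18 and 3.26 times as high in spots chosen by Lamp5 and Cux2 (3.13 ± 0.154, SD, n = 3 sections). Cux2 was 3.27, 3.22 and 3.74 times as high in spots chosen by Lamp5 and Rasgrf2 (3.41 ± 0.286, SD, n = 3 sections). Each of the 3 genes was thus higher in all 3 sections in spots that it had not helped to choose. Between 3 sections and a fixed ratio of 1 no permutation test could fall below 0.05, and none is given.

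The sections held 26032042, 13788407 and 18582120 counts, and the upper-layer spots 1569125, 1114758 and 1571566 of them. The median upper-layer spot held 10197, 7423.5 and 10534.5 counts, against 8947, 5199 and 7081 counts for the other spots, and the part of this difference in depth in the results was not tested. The median share of mitochondrial counts was 11.8%, 9.90% and 9.02% in upper-layer spots, against 12.4%, 10.1% and 9.15% in the other spots. Across the sections 4182 spot barcodes occurred, 1252 of them in 3 sections and 1141 in 2, because slides share the same set of positions. The upper-layer spots used 444 barcodes, of which 6 served in 2 sections.

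Spots were also clustered without Lamp5, Rasgrf2 and Cux2, which gives the surroundings of the upper-layer spots from other genes. Hs3st4, Fezf2 and Rprm, which chose the deep-layer spots described below, were not left out. The clusters of deep-layer spots are therefore not independent of their choice. Cluster 4 held 120, 123 and 123 of the 150 upper-layer spots (80.0%, 82.0% and 82.0%), and its leading genes were Ddit4l, Vip, Bhlhe22, Mef2c, Kcnab3 and Krt12. Upper-layer spots made up 30.8%, 36.8% and 46.9% of cluster 4, so the cluster is wider than the chosen set. Of the 150 spots ranked next, 58.7%, 40.0% and 39.3% were in cluster 4. Cluster 6, led by the thalamic genes Shox2, Tcf7l2 and Gbx2, held 0 upper-layer spots.

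**Figure D2:**
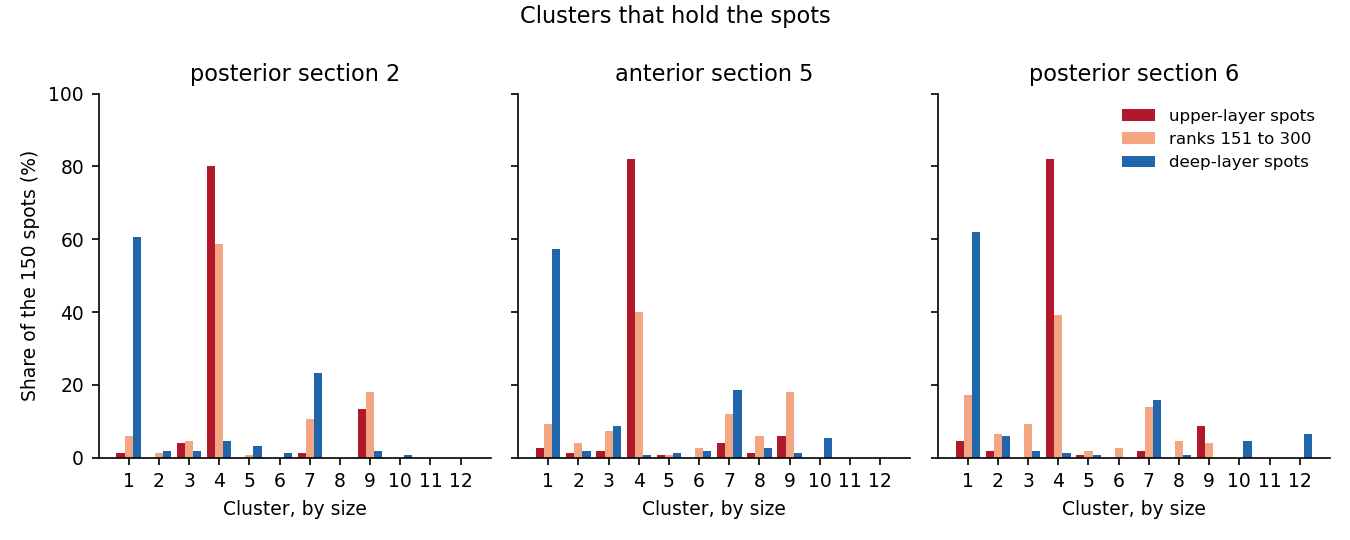
Share of the upper-layer spots, the 150 spots ranked next and the deep-layer spots (percent of the spots in each group and section) in each cluster. The clusters were built without Lamp5, Rasgrf2 and Cux2, but the genes that chose the deep-layer spots were not left out. Cluster 4 holds 80.0% to 82.0% of the upper-layer spots of each section.

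A minority of the upper-layer spots lay in cluster 9, whose leading genes Fmod, Ptgds, Mgp, Ogn, Acta2 and Myoc are known from meninges and vessel walls. It held 20, 9 and 13 of the 150 upper-layer spots. In these spots Ptgds, a prostaglandin synthase of the meninges, stood at 4853, 4915 and 2267 CPM, against 278, 295 and 356 CPM in the upper-layer spots of cluster 4. Gfap, an intermediate filament of astrocytes that line the brain surface, stood at 176, 116 and 167 CPM in cluster 9, against 17.1, 17.97 and 13.9 CPM in cluster 4. Mef2c, a transcription factor of excitatory neurons, stood at 541, 248 and 637 CPM in cluster 9, against 891, 974 and 892 CPM in cluster 4. The genes that define clusters are no independent result, and these values only describe what the set contains.

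In the comparison with the other spots, 9 of 15 known genes of layers 2 and 3 and 4 of 6 of layer 4 were higher in the upper-layer spots, and 8 of 12 genes of layer 5 and 8 of 12 of layer 6 were lower, where 16.1% of all genes tested were higher and 15.7% lower. Of genes of excitatory cortical neurons 14 of 16 were higher, as were 15 of 16 genes of recent neuronal activity. Lower were 8 of 10 markers of thalamus, 10 of 10 of striatum, 6 of 6 of hypothalamus, 9 of 9 of oligodendrocytes and 6 of 6 of choroid plexus. Counts were summed per section and side and tested with edgeR's quasi-likelihood test, with the section as a block and Benjamini-Hochberg adjustment over all 13531 genes tested. At an adjusted p under 0.05, 2181 genes were higher and 2127 lower, 31.8% together, and the median log2 fold change over all genes tested was -0.01. The other spots include every other region and also the rest of the cortex, with most of cluster 4 and all deep-layer spots, and a large share of called genes stands behind each count below.

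Among 15 genes known from layers 2 and 3, 9 passed as higher and 1 as lower (median log2 fold change 0.68). Stard8, which encodes a protein with a lipid-binding START domain, was measured at 65.0, 64.6 and 50.9 CPM in upper-layer spots, against 13.7, 13.3 and 8.47 CPM in the other spots (log2 fold change 2.41 ± 0.14, adjusted p = 1.17e-43). Calb1, the calcium-buffering protein calbindin, was measured at 306, 318 and 331 CPM in upper-layer spots, against 158, 134 and 139.6 CPM in the other spots (log2 fold change 1.19 ± 0.07, adjusted p = 3.88e-45). Cux1, the homeobox relative of Cux2, was measured at 128, 150.7 and 147 CPM in upper-layer spots, against 69.8, 74.7 and 72.1 CPM in the other spots (log2 fold change 1.02 ± 0.08, adjusted p = 2.45e-25). For each of these genes every upper-layer value lay above every value of the other spots. Genes described here and below by their overlap were picked by adjusted p or fold change, which favours a lack of overlap. The share without overlap over all genes tested was not counted. Kitl, the ligand of the Kit receptor, was higher at 71.4, 77.1 and 79.5 CPM in upper-layer spots, against 37.2, 34.8 and 30.9 CPM in the other spots (log2 fold change 1.19 ± 0.11, adjusted p = 1.32e-21). Lmo4, a LIM-domain cofactor of transcription, was higher at 403, 341 and 329.6 CPM in upper-layer spots, against 203, 196 and 195 CPM in the other spots (log2 fold change 0.90 ± 0.06, adjusted p = 5.72e-32). Members that were also higher were Pvrl3, a cell adhesion protein, at a log2 fold change of 1.36 ± 0.15, Lhx2, a homeobox factor, at 1.10 ± 0.10, and Pou3f2, a POU factor, at 0.68 ± 0.14. Mdga1, an adhesion protein of early upper-layer neurons, was the 1 member that was lower, at -0.84 ± 0.28. Without section 5 its log2 fold change was -0.86 and without section 6 it was -0.78, and neither passed, nor did it pass without the section as a block (-0.82) or in DESeq2 (-0.83).

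**Figure D3:**
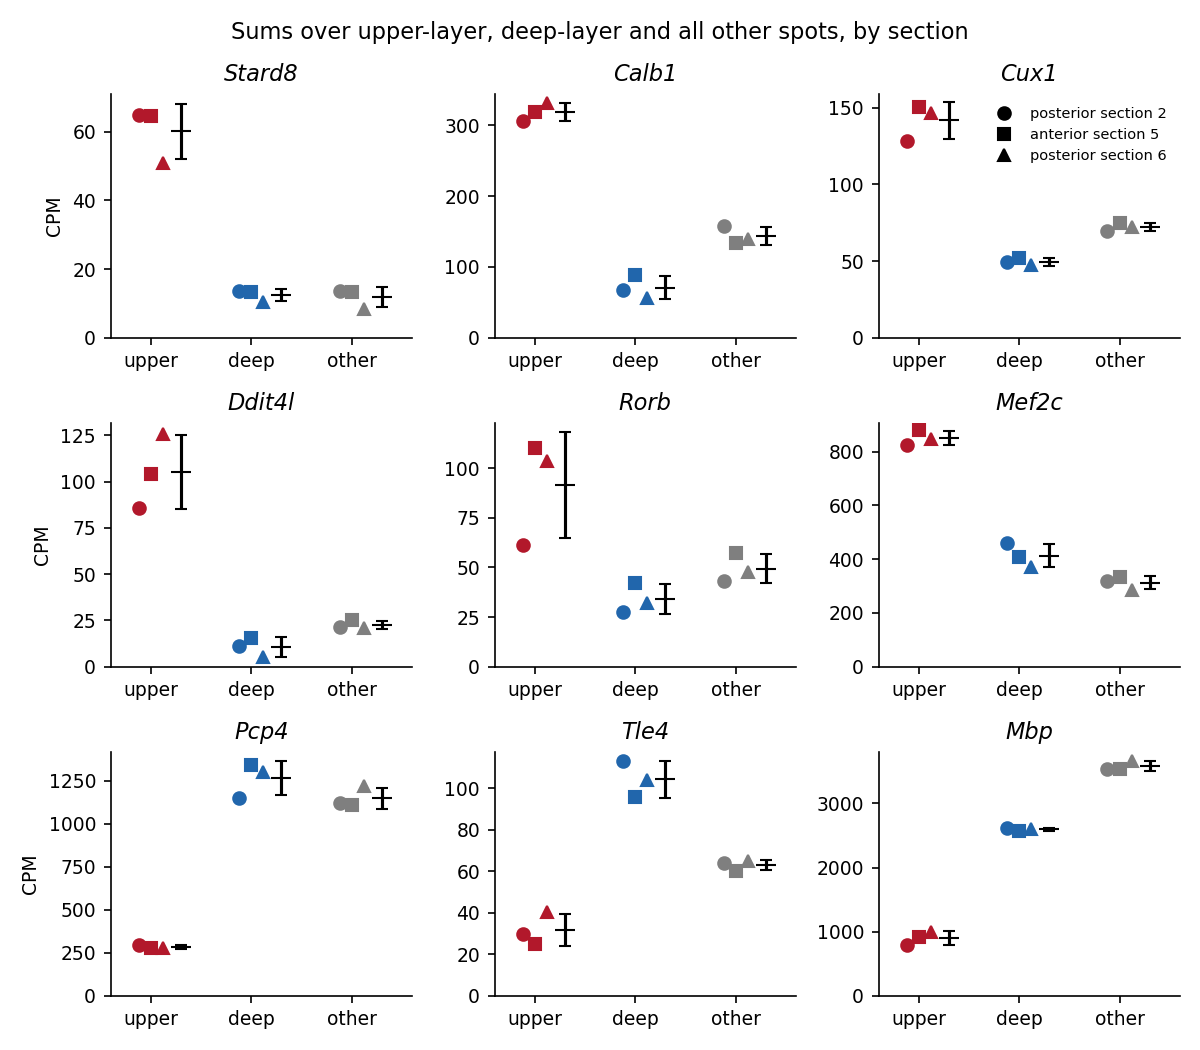
CPM of 9 genes in upper-layer, other and deep-layer spots, with 1 point for each of the 3 sections and bars for the mean ± SD. Stard8, Calb1 and Ddit4l are higher in the upper-layer spots of every section, and Pcp4 and Mbp are lower.

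Of 6 genes known from layer 4, 4 were higher and 1 was lower (median 1.17). Tmem215, a transmembrane protein, was measured at 44.0, 48.4 and 55.4 CPM in upper-layer spots, against 12.4, 9.16 and 8.23 CPM in the other spots (log2 fold change 2.34 ± 0.15, adjusted p = 2.52e-36). Rorb, the nuclear receptor by which layer 4 is usually recognised, was measured at 61.2, 110.3 and 104 CPM in upper-layer spots, against 43.3, 57.2 and 47.9 CPM in the other spots (log2 fold change 0.92 ± 0.10, adjusted p = 4.02e-16). Its levels did not overlap between the sides. Kcnh5, a voltage-gated potassium channel, was higher at 8.92, 18.8 and 12.1 CPM in upper-layer spots, against 3.48, 4.81 and 4.23 CPM in the other spots (log2 fold change 1.67 ± 0.28, adjusted p = 6.26e-08), but not with spots ranked after thinning (0.59). Rspo1, a secreted enhancer of Wnt signalling, was higher at 27.4, 26.9 and 36.3 CPM in upper-layer spots, against 12.5, 12.5 and 10.5 CPM in the other spots (log2 fold change 1.42 ± 0.17, adjusted p = 1.29e-13). Whrn, a scaffold protein, was lower at a log2 fold change of -0.78 ± 0.19, but not without section 2, where it was at -0.42. Of 6 tested genes known from layer 1, 3 were higher and 1 was lower (median 0.36), while Reln and Ndnf did not pass. Npy, a neuropeptide of interneurons, was higher at 275, 287 and 277 CPM in upper-layer spots, against 117, 147 and 131 CPM in the other spots (log2 fold change 1.15 ± 0.07, adjusted p = 2.57e-41). Id2, an inhibitor of basic helix-loop-helix factors, was higher at 0.66 ± 0.07 and the chemokine Cxcl14 at 0.56 ± 0.08. Trp73, a p53 relative of Cajal-Retzius cells and choroid plexus, was the 1 member that passed as lower, with 1, 0 and 0 counts in upper-layer spots, against 74, 37 and 39 counts in the other spots. It did not pass in DESeq2 (adjusted p = 0.0766).

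Genes known from the deep layers were mostly lower, although the other spots hold much tissue besides deep cortex. Of 12 genes of layer 5, 1 was higher and 8 were lower (median -0.93). Pcp4, a calmodulin-binding peptide, was measured at 297, 276 and 279 CPM in upper-layer spots, against 1118, 1109 and 1219.8 CPM in the other spots (log2 fold change -1.97 ± 0.06, adjusted p = 4.25e-83). Bcl11b, a zinc finger factor of neurons that project below the cortex, was measured at 28.7, 41.3 and 26.1 CPM in upper-layer spots, against 90.7, 109.8 and 87.7 CPM in the other spots (log2 fold change -1.56 ± 0.12, adjusted p = 7.62e-28). Both were lower without overlap between the sides. Of 12 genes of layer 6, 1 was higher and 8 were lower (median -1.09). Foxp2, a forkhead factor, was measured at 14.7, 8.07 and 1.91 CPM in upper-layer spots, against 34.8, 36.8 and 32.7 CPM in the other spots (log2 fold change -2.02 ± 0.21, adjusted p = 2.67e-17). Tle4, a corepressor of the Groucho family, was measured at 29.95, 25.1 and 40.1 CPM in upper-layer spots, against 63.7, 60.2 and 65.0 CPM in the other spots (log2 fold change -0.92 ± 0.13, adjusted p = 8.57e-11). Tbr1, a T-box factor of cortical excitatory neurons that is strongest in layer 6, was the 1 member that was higher, at 140.2, 139.9 and 150.2 CPM in upper-layer spots, against 90.8, 70.3 and 76.1 CPM in the other spots (log2 fold change 0.90 ± 0.08, adjusted p = 3.21e-21).

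Of 16 genes of cortical excitatory neurons in general, 14 were higher and 1 was lower (median 1.08). Mef2c, a MADS-box transcription factor, was measured at 826, 879 and 848 CPM in upper-layer spots, against 320.3, 332 and 287 CPM in the other spots (log2 fold change 1.50 ± 0.06, adjusted p = 1.1e-69). Nrgn, neurogranin, a calmodulin-binding protein of dendritic spines, was measured at 4209, 5034 and 4661 CPM in upper-layer spots, against 1724, 2033 and 1807 CPM in the other spots (log2 fold change 1.37 ± 0.05, adjusted p = 6.17e-68). Camk2a, the alpha subunit of calcium/calmodulin-dependent kinase II, was measured at 732, 896 and 727 CPM in upper-layer spots, against 349, 442 and 357 CPM in the other spots (log2 fold change 1.09 ± 0.06, adjusted p = 1.56e-47). All upper-layer values of these genes lay above those of the other spots. Nrn1, neuritin, was higher at 380.5, 446 and 473 CPM in upper-layer spots, against 200.1, 183 and 206 CPM in the other spots (log2 fold change 1.18 ± 0.06, adjusted p = 8.66e-48). Slc17a7, the vesicular glutamate transporter VGLUT1, was higher at a log2 fold change of 0.81 ± 0.06. Lmo3, a LIM-domain cofactor, was lower at -0.57 ± 0.09, but stood at 0.0093 with spots ranked without Lamp5 and at 0.012 with spots ranked after thinning.

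Over all genes tested, list members included, 178 met the limits of at least 1 on the log2 scale and 20 CPM upwards. The 12 furthest up were Gm765, Tspan11, A830009L08Rik, Stard8, Tmem215, Igfn1, Ddit4l, Chrdl1, Evc2, Robo3, Vip and Pdzrn3. Gm765 was measured at 19.1, 26.0 and 27.4 CPM in upper-layer spots, against 1.14, 1.18 and 1.53 CPM in the other spots (log2 fold change 4.24 ± 0.28, adjusted p = 6.29e-36). Ddit4l, an inhibitor of mTOR signalling, was measured at 86.0, 104 and 126 CPM in upper-layer spots, against 21.6, 25.3 and 20.7 CPM in the other spots (log2 fold change 2.28 ± 0.11, adjusted p = 1.64e-56). Igfn1, a protein with immunoglobulin and fibronectin domains known from muscle, was measured at 37.0, 44.0 and 33.7 CPM in upper-layer spots, against 6.91, 10.1 and 7.17 CPM in the other spots (log2 fold change 2.31 ± 0.17, adjusted p = 1.03e-29). Of these 3 genes each upper-layer value exceeded every value of the other spots. Tspan11, a tetraspanin membrane protein, was higher at 17.8, 23.3 and 24.8 CPM in upper-layer spots, against 3.84, 4.34 and 3.35 CPM in the other spots (log2 fold change 2.56 ± 0.23, adjusted p = 1.84e-21). Chrdl1, a secreted antagonist of bone morphogenetic proteins, was higher at 24.2, 26.9 and 17.2 CPM in upper-layer spots, against 5.56, 6.63 and 3.47 CPM in the other spots (log2 fold change 2.19 ± 0.22, adjusted p = 2.46e-18). Evc2, a protein of the primary cilium that acts in Hedgehog signalling, was higher at 29.3, 26.9 and 35.6 CPM in upper-layer spots, against 7.36, 7.66 and 7.11 CPM in the other spots (log2 fold change 2.12 ± 0.19, adjusted p = 7.55e-23). Robo3, of the Robo family of axon guidance receptors, had a log2 fold change of 1.98 ± 0.13, the ubiquitin ligase Pdzrn3 of 1.90 ± 0.13 and the transcript A830009L08Rik of 2.51 ± 0.23.

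The 12 genes at the other end, among 269 that met the same limits, were Shox2, Oxt, Dlk1, Avp, Clic6, Ttr, Tcf7l2, Zic1, Folr1, Calb2, Agt and Cbln1. Most are known from thalamus, hypothalamus, choroid plexus or non-cortical neurons. Agt is on the list of astrocyte markers, and Calb2 is also on that of interneurons. Shox2, a homeobox factor of the thalamus, had 0, 0 and 1 counts in all upper-layer spots, at 20.5, 28.7 and 29.2 CPM in the other spots. Tcf7l2, a Wnt-signal factor of thalamic neurons, was measured at 7.01, 11.7 and 8.27 CPM in upper-layer spots, against 78.6, 81.1 and 93.4 CPM in the other spots (log2 fold change -3.23 ± 0.17, adjusted p = 1.09e-47). Calb2, the calcium-binding protein calretinin, was measured at 8.92, 16.1 and 11.5 CPM in upper-layer spots, against 112, 95.4 and 115 CPM in the other spots (log2 fold change -3.16 ± 0.15, adjusted p = 8.4e-54), but did not pass with spots ranked without Lamp5 (-0.26). In all 3 genes the sides did not overlap.

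The other spots include every region of the section, so upper-layer spots were also set against deep-layer cortical spots. These were the 150 spots of each section with the highest score of Hs3st4, Fezf2 and Rprm, which are known from layers 5 and 6, and no spot was in both sets. In this comparison 11 of 14 tested genes of layers 2 and 3 and 4 of 5 of layer 4 were higher, and 7 of 10 of layer 5 and 9 of 9 of layer 6 were lower in upper-layer spots. Of 10451 genes tested with edgeR's quasi-likelihood test, 769 (7.36%) were higher and 762 (7.29%) lower, 14.6% together, with Benjamini-Hochberg adjustment and a median log2 fold change of 0.005 over all of them. Both comparisons share the upper-layer spots, so their values are given side by side and not correlated.

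Of 14 tested genes of layers 2 and 3, 11 were higher and 0 lower than in deep-layer spots (median 0.95). Calb1 was at 67.7, 87.9 and 56.1 CPM in the deep-layer spots, below each value in upper-layer spots (log2 fold change 2.23 ± 0.11, adjusted p = 4.09e-38). Stard8 was at 13.5, 13.3 and 10.5 CPM there (log2 fold change 2.29 ± 0.21, adjusted p = 1.28e-17) and Cux1 at 49.2, 52.3 and 47.2 CPM (log2 fold change 1.53 ± 0.12, adjusted p = 2.74e-20), again without overlap. Otof, an exocytosis protein best known from hair cells, was higher at a log2 fold change of 1.61 ± 0.37, and Wfs1, a membrane protein of the endoplasmic reticulum, at 0.81 ± 0.13. Otof did not pass in DESeq2 (1.69). With deep-layer spots chosen by Tle4, Syt6 and Foxp2, Otof turned to -0.33 and Wfs1 did not pass. Of 5 tested layer 4 genes 4 were higher and 0 lower (median 1.86). Rorb was at 27.7, 42.3 and 32.2 CPM in deep-layer spots (log2 fold change 1.44 ± 0.15, adjusted p = 3.2e-14). Tmem215 was at 9.23, 13.3 and 8.23 CPM there (log2 fold change 2.32 ± 0.23, adjusted p = 1.79e-15) and Rspo1 at 6.15, 6.67 and 3.74 CPM (log2 fold change 2.48 ± 0.30, adjusted p = 2e-11), below every upper-layer value. Of 5 layer 1 genes, 2 were higher and 0 lower (median 0.42), namely Npy at 0.81 ± 0.09 and Cxcl14 at 0.67 ± 0.11.

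Layer 5 genes gave 0 higher and 7 lower of 10 tested (median -0.94). Pcp4 was at 1153, 1341 and 1304 CPM in deep-layer spots (log2 fold change -2.12 ± 0.08, adjusted p = 3.75e-45). Bcl11b was at 94.8, 118 and 81.6 CPM there (log2 fold change -1.60 ± 0.15, adjusted p = 5.86e-17), and no section of either side overlapped the other side. Crym, a thyroid hormone-binding protein, was measured at 36.3, 13.5 and 17.2 CPM in upper-layer spots, against 124, 84.5 and 100.3 CPM in the deep-layer spots (log2 fold change -2.15 ± 0.16, adjusted p = 6.92e-23). Layer 6 genes gave 0 higher and 9 lower of 9 tested (median -2.53). Ctgf, a matrix protein of the deepest cortical sublayer, was measured at 11.5, 11.7 and 12.7 CPM in upper-layer spots, against 88.6, 90.1 and 72.6 CPM in the deep-layer spots (log2 fold change -2.76 ± 0.19, adjusted p = 6.17e-25). Foxp2 was at 49.8, 60.1 and 40.4 CPM in deep-layer spots (log2 fold change -2.53 ± 0.25, adjusted p = 1.1e-15) and Tle4 at 113, 95.6 and 104 CPM (log2 fold change -1.68 ± 0.14, adjusted p = 1.04e-18). Tbr1, which was higher than in the other spots, was lower than in deep-layer spots, which had 260.3, 166 and 201 CPM (log2 fold change -0.53 ± 0.10, adjusted p = 7.83e-06). It did not pass in DESeq2 (-0.51), and with deep-layer spots chosen by Tle4, Syt6 and Foxp2 it turned to 0.52. Cplx3, a complexin of the deepest sublayer, had a log2 fold change of -2.54 ± 0.19. Deep-layer spots were chosen by genes of layers 5 and 6, so the direction of these 2 lists is near to what the choice used.

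**Figure D4:**
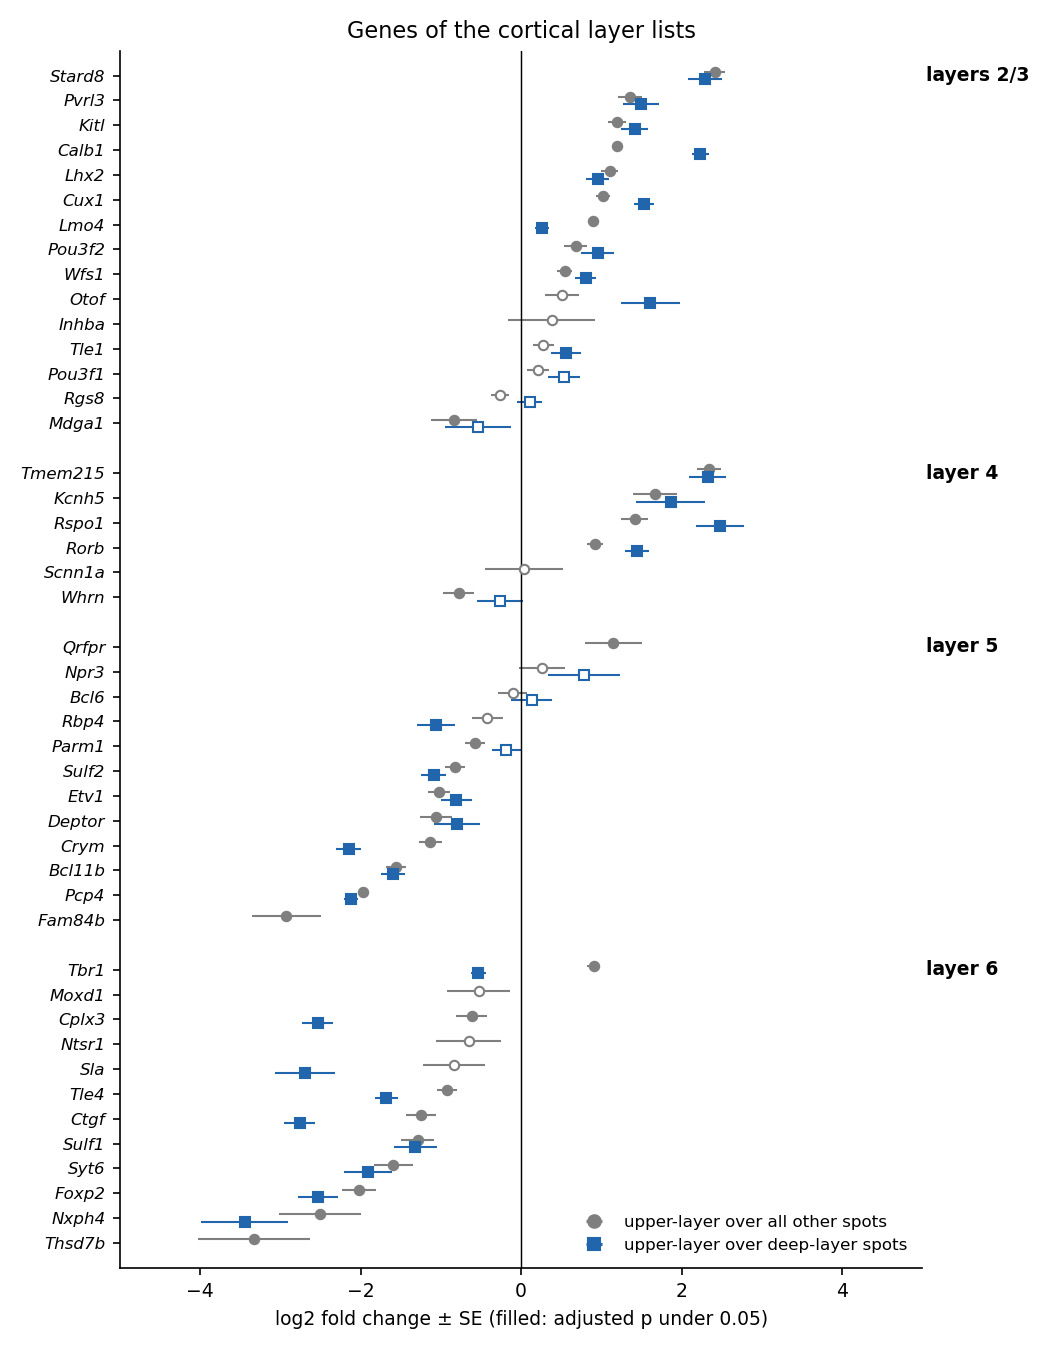
Log2 fold change ± SE of the genes of the layer lists in upper-layer over other spots and in upper-layer over deep-layer spots, with filled points for an adjusted p under 0.05 in edgeR's quasi-likelihood test. Genes of layers 2 to 4 lie mostly right of 0 and those of layers 5 and 6 mostly left, and Tbr1 changes side between the comparisons.

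Excitatory neuron genes split within cortex, with 10 of 16 higher and 5 lower (median 0.42). Mef2c was at 459, 408 and 372 CPM in deep-layer spots (log2 fold change 1.07 ± 0.08, adjusted p = 4.66e-22), below every upper-layer value. Nrgn was higher at a log2 fold change of 0.79 ± 0.08 and Camk2a at 0.67 ± 0.08. On the other side were Lmo3 at -1.57 ± 0.11, Neurod6 at -1.13 ± 0.15 and Slc17a7 at -0.39 ± 0.08, the last of which was higher than in the other spots. With deep-layer spots chosen by Tle4, Syt6 and Foxp2 in place of the first set, with which they shared 23, 19 and 18 of 150 spots, Slc17a7 was at 0.79 and Neurod6 at 0.019. Furthest above deep-layer spots by log2 fold change were the 12 genes Gm765, Ddit4l, Chrdl1, Tspan11, A830009L08Rik, Rspo1, Tmem215, Stard8, Calb1, Cbln4, Evc2 and Rassf3. Ddit4l stood at 86.0, 104 and 126 CPM in upper-layer spots, against 11.1, 15.6 and 5.24 CPM in deep-layer spots (log2 fold change 3.37 ± 0.20, adjusted p = 9.21e-31). Cbln4, a secreted synapse organiser of the cerebellin family, was measured at 29.95, 36.8 and 41.4 CPM in upper-layer spots, against 7.38, 6.67 and 9.73 CPM in the deep-layer spots (log2 fold change 2.16 ± 0.26, adjusted p = 1.56e-11). Rassf3, a protein with a Ras-association domain, had a log2 fold change of 1.97 ± 0.17. The 12 genes furthest in the other direction were Rai14, Ctgf, Sla, Ighm, Arhgap25, Trbc2, Cabp7, Cplx3, Foxp2, Nxph3, Gadd45a and Col6a1. Ighm and Trbc2 carry the names of immunoglobulin and T cell receptor constant regions and also led cluster 1, which held 91, 86 and 93 of the 150 deep-layer spots. Ighm was measured at 19.8, 17.9 and 19.7 CPM in upper-layer spots, against 111, 125 and 125 CPM in the deep-layer spots (log2 fold change -2.61 ± 0.16, adjusted p = 1.13e-29). Trbc2 stood at 10.8, 12.6 and 13.999 CPM in upper-layer spots, against 73.2, 65.6 and 86.8 CPM in the deep-layer spots (log2 fold change -2.58 ± 0.19, adjusted p = 1.43e-22).

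Ion channels and receptors set the electrical behaviour of neurons and differed member by member. The counts of these and later lists stand beside 16.1% of all genes higher and 15.7% lower than in the other spots. For deep-layer spots the shares were 7.36% and 7.29%. Of 36 potassium channel genes tested, 22 were higher and 3 lower than in the other spots (median 0.36), and against deep-layer spots 12 of 34 were higher and 3 lower (median 0.05). Kcnv1, a silent modifier subunit, was measured at 101, 91.5 and 111 CPM in upper-layer spots, against 38.1, 34.7 and 32.0 CPM in the other spots (log2 fold change 1.59 ± 0.10, adjusted p = 1.28e-37). Kcnh7, a channel of the ERG family, was measured at 130.0, 182 and 171 CPM in upper-layer spots, against 53.2, 61.8 and 53.8 CPM in the other spots (log2 fold change 1.55 ± 0.08, adjusted p = 5.11e-46). Both were also higher than in deep-layer spots, at log2 fold changes of 0.80 ± 0.13 and 0.98 ± 0.11. Kcnq5, which carries the M-current, had a log2 fold change of 1.27 ± 0.10 over the other spots and 1.16 ± 0.13 over deep-layer spots. Kcnj3, a G protein-gated inward rectifier, was at 1.19 ± 0.08 over the other spots and 0.62 ± 0.10 over deep-layer spots. Kcnip3, an auxiliary subunit of A-type channels, was lower than in deep-layer spots at -0.77 ± 0.12. With spots ranked after thinning, 15 gene values of the text kept their direction but did not pass. Against deep-layer spots these included Kcnip3 and, of the genes given below, Gabra2, Gria1, Grm8, Htr2c and Rapgef4.

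Of 19 calcium channel genes, 12 were higher and 3 lower than in the other spots (median 0.33), and 7 of 18 were higher and 2 lower than in deep-layer spots (median 0.18). Cacng3, an auxiliary subunit that also binds AMPA receptors, was measured at 187, 150.7 and 148.9 CPM in upper-layer spots, against 78.7, 67.7 and 65.9 CPM in the other spots (log2 fold change 1.25 ± 0.08, adjusted p = 4.35e-36). The deep-layer spots had 104, 82.3 and 90.6 CPM (log2 fold change 0.83 ± 0.11, adjusted p = 2.49e-10). The alpha2delta subunits went in opposite directions. Cacna2d1 was higher at 235, 209 and 224 CPM in upper-layer spots, against 110.3, 108 and 102 CPM in the other spots (log2 fold change 1.12 ± 0.07, adjusted p = 1.64e-36). Cacna2d2 was lower at 13.4, 19.7 and 13.4 CPM in upper-layer spots, against 53.0, 52.6 and 50.7 CPM in the other spots (log2 fold change -1.74 ± 0.16, adjusted p = 6.62e-21). Neither overlapped between the sides.

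Ionotropic glutamate receptor genes gave 5 higher and 3 lower of 14 tested against the other spots (median 0.12). The deep-layer comparison gave 4 higher and 4 lower of 13 tested (median 0.05). Grin2a, an NMDA receptor subunit of mature synapses, was measured at 287, 242 and 288 CPM in upper-layer spots, against 129.9, 121 and 128 CPM in the other spots (log2 fold change 1.16 ± 0.07, adjusted p = 1.01e-41). Gria3, an AMPA receptor subunit, was higher at 258, 205 and 209 CPM in upper-layer spots, against 148, 126 and 120.3 CPM in the other spots (log2 fold change 0.82 ± 0.07, adjusted p = 1.19e-23). Grik3, a kainate receptor subunit, was lower at 20.4, 18.8 and 26.1 CPM in upper-layer spots, against 45.6, 43.2 and 46.9 CPM in the other spots (log2 fold change -0.997 ± 0.15, adjusted p = 1.7e-09). Against deep-layer spots its log2 fold change was -1.60 ± 0.18. The AMPA receptor subunit Gria1 was lower in both comparisons, at -0.47 ± 0.07 and -0.52 ± 0.10. Of 7 metabotropic glutamate receptor genes, 2 were higher and 2 lower in each comparison (medians 0.11 and 0.10). Grm2, a receptor that dampens glutamate release, was measured at 33.1, 48.4 and 59.8 CPM in upper-layer spots, against 23.1, 23.8 and 26.4 CPM in the other spots (log2 fold change 0.98 ± 0.13, adjusted p = 4.31e-11) and was higher than in deep-layer spots (log2 fold change 1.52 ± 0.21, adjusted p = 2.14e-09). Grm8, a release-dampening receptor of another group, was lower than in deep-layer spots at 10.8, 4.49 and 7.64 CPM in upper-layer spots, against 28.3, 17.8 and 24.0 CPM in the deep-layer spots (log2 fold change -1.55 ± 0.29, adjusted p = 1.08e-05).

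GABA-A receptor genes gave 7 higher and 1 lower of 12 tested against the other spots (median 0.35). Within cortex they gave 5 higher and 1 lower of 11 tested (median 0.15). Gabrd, the subunit of extrasynaptic receptors, was measured at 161, 138 and 157 CPM in upper-layer spots, against 93.4, 77.4 and 83.0 CPM in the other spots (log2 fold change 0.89 ± 0.08, adjusted p = 4.31e-22) and stood above deep-layer spots at a log2 fold change of 0.95 ± 0.11. Gabra2, an alpha subunit, was higher in both comparisons, at 0.59 ± 0.11 and 0.85 ± 0.15. Among receptors for monoamines and acetylcholine the counts were 4 higher and 5 lower of 15 tested against the other spots (median -0.30). The deep-layer comparison gave 3 higher and 3 lower of 14 tested (median -0.35). Chrm3, a muscarinic acetylcholine receptor, was measured at 66.3, 46.6 and 71.3 CPM in upper-layer spots, against 26.7, 23.1 and 23.9 CPM in the other spots (log2 fold change 1.39 ± 0.12, adjusted p = 3.14e-23). Htr2c, a serotonin receptor, was lower at 12.1, 10.8 and 12.7 CPM in upper-layer spots, against 60.2, 49.7 and 48.6 CPM in the other spots (log2 fold change -2.10 ± 0.17, adjusted p = 9.04e-26). Both kept their direction against deep-layer spots, at 0.59 ± 0.15 for Chrm3 and -1.70 ± 0.23 for Htr2c, but Chrm3 did not pass there without section 6 (0.46) or in DESeq2 (0.57).

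Interneuron genes gave 2 higher and 9 lower of 14 tested against the other spots (median -0.31), and against deep-layer spots they gave 3 higher and 2 lower of 12 tested (median 0.06). Vip, the peptide of a class of cortical interneurons concentrated in the upper layers, was measured at 86.0, 90.6 and 98.6 CPM in upper-layer spots, against 26.9, 23.5 and 23.3 CPM in the other spots (log2 fold change 1.94 ± 0.11, adjusted p = 5.95e-45). The deep-layer spots had 58.5, 28.9 and 22.5 CPM (log2 fold change 1.30 ± 0.15, adjusted p = 1.28e-11). Gad2, an enzyme of GABA synthesis that also marks the striatum, was lower than in the other spots at 149.8, 115 and 134 CPM in upper-layer spots, against 251, 259.6 and 235 CPM in the other spots (log2 fold change -0.84 ± 0.08, adjusted p = 6.4e-22). Of the neuropeptide genes, some of which are in the list above, the counts were 6 higher and 7 lower of 15 tested against the other spots (median -0.22). Within cortex they gave 6 higher and 2 lower of 13 tested (median 0.41). Cck, cholecystokinin, was measured at 1298, 1069 and 1152 CPM in upper-layer spots, against 529, 402 and 515 CPM in the other spots (log2 fold change 1.34 ± 0.06, adjusted p = 1.51e-61). The deep-layer spots had 740.2, 593 and 899 CPM (log2 fold change 0.69 ± 0.08, adjusted p = 8.03e-12). Cartpt, the precursor of the CART peptide, was higher at 35.7, 49.3 and 50.3 CPM in upper-layer spots, against 27.1, 23.0 and 18.3 CPM in the other spots (log2 fold change 1.03 ± 0.14, adjusted p = 2.89e-11). Penk, proenkephalin, which also marks the striatum, was lower at 146, 110.3 and 132 CPM in upper-layer spots, against 408, 399 and 425 CPM in the other spots (log2 fold change -1.61 ± 0.07, adjusted p = 3.64e-57).

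Immediate early genes, which neurons switch on after recent activity, were higher than in the other spots in 15 of 16 cases, with 0 lower (median 0.70). Within cortex they gave 1 higher and 1 lower of 16 tested (median 0.03). Egr1, a zinc finger factor, was measured at 363, 394 and 427 CPM in upper-layer spots, against 248, 265 and 242 CPM in the other spots (log2 fold change 0.70 ± 0.06, adjusted p = 1.69e-22). Arc, a protein of active synapses, was measured at 153, 301 and 295 CPM in upper-layer spots, against 112, 188 and 175 CPM in the other spots (log2 fold change 0.68 ± 0.07, adjusted p = 2.44e-18). Arc was higher in each section, but its values overlapped between the sides, with section 2 the lowest of the upper-layer values. Within cluster 4 (compared after seeing the data) the direction turned: Arc passed as lower in edgeR's quasi-likelihood test, at -0.24 ± 0.07 (adjusted p = 0.0121), and Egr1 stood at -0.13 ± 0.06 (adjusted p = 0.202). Because Rasgrf2 acts on Ras, genes of that signalling family were counted too, with 6 higher and 5 lower of 17 tested against the other spots (median -0.00). The deep-layer comparison gave 1 higher and 7 lower of 17 tested (median -0.17). Rasgrp2, an exchange factor for Rap known from striatum and platelets, was lower than in the other spots at 15.3, 13.5 and 16.5 CPM in upper-layer spots, against 54.0, 63.9 and 58.3 CPM in the other spots (log2 fold change -1.88 ± 0.16, adjusted p = 1.14e-24). Rapgef4, an exchange factor for Rap that responds to cyclic AMP, was lower than in deep-layer spots at -0.65 ± 0.09.

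Calcium-binding proteins gave 7 higher and 5 lower of 15 tested against the other spots (median 0.12). Within cortex they gave 4 higher and 3 lower of 15 tested (median -0.16). Cabp1, a calmodulin-like regulator of channels, was measured at 212, 336 and 276 CPM in upper-layer spots, against 94.3, 125 and 119 CPM in the other spots (log2 fold change 1.32 ± 0.07, adjusted p = 3.05e-48). Ncald, neurocalcin delta, was lower than in deep-layer spots at 344, 353 and 384 CPM in upper-layer spots, against 713, 604 and 654 CPM in the deep-layer spots (log2 fold change -0.85 ± 0.08, adjusted p = 8.91e-16), but did not pass with deep-layer spots chosen by Tle4, Syt6 and Foxp2. Cadherins and protocadherins, which mediate cell adhesion, gave 6 higher and 5 lower of 19 tested and 6 higher and 5 lower of 19 tested (medians -0.04 and 0.10). Pcdh7 was higher than in the other spots at 194, 200.043 and 185 CPM in upper-layer spots, against 109.6, 107 and 98.1 CPM in the other spots (log2 fold change 0.93 ± 0.07, adjusted p = 2.43e-26). Cdh13 was lower at 22.3, 30.5 and 42.0 CPM in upper-layer spots, against 67.5, 63.1 and 68.0 CPM in the other spots (log2 fold change -1.03 ± 0.13, adjusted p = 1.03e-12). Genes of axon guidance gave 9 higher and 7 lower of 30 tested and 6 higher and 8 lower of 28 tested (medians 0.23 and -0.12). Unc5d, a netrin receptor known from upper-layer neurons, was higher at 60.5, 61.0 and 76.4 CPM in upper-layer spots, against 30.8, 29.0 and 26.6 CPM in the other spots (log2 fold change 1.25 ± 0.12, adjusted p = 5.75e-21). Sema7a, a membrane-anchored semaphorin, was higher at 152, 169.5 and 204 CPM in upper-layer spots, against 80.3, 91.5 and 99.2 CPM in the other spots (log2 fold change 1.004 ± 0.08, adjusted p = 3.72e-28). Efnb3, an ephrin, was lower at 35.1, 26.9 and 31.8 CPM in upper-layer spots, against 126, 122 and 118 CPM in the other spots (log2 fold change -1.90 ± 0.11, adjusted p = 8.15e-40). Genes of the perineuronal matrix, a coat around some neurons, gave 4 higher and 1 lower of 9 tested and 2 higher and 0 lower of 6 tested (medians -0.25 and 0.07), with the link protein gene Hapln4 higher in both, at 0.75 ± 0.08 and 0.72 ± 0.11. Nuclear genes of oxidative phosphorylation gave 4 higher and 0 lower of 31 tested and 0 higher and 0 lower of 31 tested (medians 0.03 and 0.02). The 4 higher are near the share of 16.1% over all genes tested.

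Markers of other cell types and regions were counted in the same sums, and their part in the results above was not tested. Thalamic markers gave 0 higher and 8 lower of 10 tested against the other spots, with a summed level of 169.5, 187 and 199.8 CPM in upper-layer spots, against 423, 418 and 516 CPM in the other spots and 178, 194 and 222 CPM in deep-layer spots. Striatal markers gave 0 higher and 10 lower of 10 tested, with 782, 618 and 602 CPM in upper-layer spots, against 1677, 1706 and 1601 CPM in the other spots and 751, 1216 and 644 CPM in deep-layer spots. Hypothalamic markers gave 0 higher and 6 lower of 6 tested, hippocampal markers 0 higher and 2 lower of 3 tested, and markers of piriform and olfactory cortex 0 higher and 5 lower of 6 tested. Against deep-layer spots the counts were 0 higher and 2 lower of 5 tested for thalamus, 0 higher and 5 lower of 10 tested for striatum, 0 higher and 2 lower of 5 tested for hypothalamus, 1 higher and 0 lower of 1 tested for hippocampus (Fibcd1), and 0 higher and 2 lower of 3 tested for piriform and olfactory cortex. Fibcd1 did not pass without section 2 or without section 6 in edgeR's quasi-likelihood test (adjusted p = 0.174 and 0.0884) or in DESeq2 (adjusted p = 0.412). The summed level of the hypothalamic list was 89.2 to 153 CPM in upper-layer spots, against 447 to 1681 CPM in the other spots and 192 to 288 CPM in deep-layer spots. That of the hippocampal list was 17.8 to 21.5 CPM in upper-layer spots, against 38.6 to 56.2 CPM in the other spots and 14.8 to 31.4 CPM in deep-layer spots. For the piriform and olfactory list it was 101 to 136 CPM in upper-layer spots, against 297 to 301 CPM in the other spots and 174 to 201 CPM in deep-layer spots. In all upper-layer spots together, Drd2 of the striatal list and Dsp and Iyd of the hippocampal list had 0 counts of 4255449, which allows a level of up to 0.705 CPM (3 counts, counting error only).

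Oligodendrocyte markers were lower in both comparisons, in 9 of 9 genes each time (medians -1.97 and -1.51). Their summed level was 1863, 2375 and 2538 CPM in upper-layer spots, against 9116, 9806 and 9705 CPM in the other spots and 6617, 7127 and 6593 CPM in deep-layer spots. Mbp, myelin basic protein, was measured at 787, 921 and 1001 CPM in upper-layer spots, against 3539, 3537 and 3667 CPM in the other spots (log2 fold change -1.94 ± 0.06, adjusted p = 5.76e-91). The deep-layer spots had 2616, 2576 and 2601 CPM (log2 fold change -1.51 ± 0.08, adjusted p = 1.89e-34). Oligodendrocyte precursor markers gave 0 higher and 1 lower of 4 tested and 0 higher and 0 lower of 3 tested, with summed levels of 40.1 to 52.9 CPM in upper-layer spots, against 68.8 to 83.2 CPM in the other spots and 46.8 to 77.8 CPM in deep-layer spots. Astrocyte markers gave 1 higher and 5 lower of 10 tested against the other spots and 2 higher and 1 lower of 10 tested against deep-layer spots. Their summed level was 3208, 3424 and 3003 CPM in upper-layer spots, against 3169, 3376 and 2930.1 CPM in the other spots and 2846, 2988 and 2762 CPM in deep-layer spots. Gfap was lower than in the other spots at 31.2, 26.9 and 24.2 CPM in upper-layer spots, against 61.2, 99.8 and 88.9 CPM in the other spots (log2 fold change -1.51 ± 0.13, adjusted p = 1.24e-23). Slc1a2, the glutamate transporter GLT-1, was higher at 1635, 1859.6 and 1493 CPM in upper-layer spots, against 1361, 1451 and 1118 CPM in the other spots (log2 fold change 0.40 ± 0.06, adjusted p = 1.54e-10).

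Over all genes tested, 16.1% were higher and 15.7% lower than in the other spots, and 7.36% and 7.29% than in deep-layer spots. Microglial markers gave 0 higher and 3 lower of 8 tested and 0 higher and 0 lower of 8 tested, endothelial markers 0 higher and 1 lower of 6 tested and 1 higher and 0 lower of 6 tested, and mural cell markers 0 higher and 3 lower of 5 tested and 0 higher and 0 lower of 3 tested. Their summed levels were, for microglia, 345 to 377 CPM in upper-layer spots, against 433 to 465 CPM in the other spots and 345 to 369 CPM in deep-layer spots. For endothelium they were 197 to 222 CPM in upper-layer spots, against 228 to 267 CPM in the other spots and 151.4 to 218 CPM in deep-layer spots. Mural cell markers summed to 69.1 to 119.6 CPM in upper-layer spots, against 121 to 188 CPM in the other spots and 51.1 to 135 CPM in deep-layer spots. Meningeal markers gave 0 higher and 8 lower of 9 tested against the other spots and 1 higher and 0 lower of 3 tested against deep-layer spots. Their summed level was 784, 615 and 549 CPM in upper-layer spots, against 1194, 1809 and 1187 CPM in the other spots and 367, 518 and 418 CPM in deep-layer spots. The member higher than in deep-layer spots was Ptgds, at 726, 574 and 492 CPM in upper-layer spots, against 323, 452 and 373 CPM in the deep-layer spots (log2 fold change 0.68 ± 0.09, adjusted p = 6.24e-10). Without the spots of cluster 9 its log2 fold change was -0.11, an alternative chosen after seeing the data, and with spots ranked after thinning it was -0.34. Ptgds also did not pass against deep-layer spots in DESeq2 (adjusted p = 0.217). Choroid plexus markers gave 0 higher and 6 lower of 6 tested (median -3.33) and 0 higher and 1 lower of 3 tested, with summed levels of 517 to 1303 CPM in upper-layer spots, against 5524 to 7482 CPM in the other spots and 1210.2 to 1524 CPM in deep-layer spots. Ttr, transthyretin, the main secreted protein of the choroid plexus, was measured at 282, 318 and 946 CPM in upper-layer spots, against 6324, 4779 and 5166 CPM in the other spots (log2 fold change -3.49 ± 0.09, adjusted p = 3.45e-109), with section 6 the highest of the upper-layer values. Blood markers gave 0 higher and 5 lower of 5 tested against the other spots and 4 higher and 0 lower of 4 tested against deep-layer spots. They summed to 699.8, 934 and 1374 CPM in upper-layer spots, against 1514, 1381 and 2114 CPM in the other spots and 517, 519 and 1099 CPM in deep-layer spots. The 4 haemoglobin genes did not pass against deep-layer spots without the section as a block, with adjusted p between 0.0628 for Hba-a2 and 0.228 for Hba-a1 in edgeR's quasi-likelihood test. Without the spots of cluster 9, Hba-a1 and Hbb-bt did not pass there (adjusted p = 0.101 and 0.487 in edgeR's test). Hbb-bt also did not pass without section 5 (adjusted p = 0.366 in edgeR's test) or in DESeq2 (adjusted p = 0.581). Against the other spots Hba-a1 did not pass without the block (adjusted p = 0.0561 in edgeR's test).

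Beyond rank 150 the same genes were followed over the ranked spots, in 6 bins of 150 spots each. Stard8 stood at 65.0, 64.6 and 50.9 CPM in the top 150 spots, 53.1, 34.6 and 20.9 CPM in the next 150 and 14.7, 13.1 and 7.22 CPM in the last of the 6 bins. Calb1 stood at 306, 318 and 331 CPM in the top 150 spots, 248, 186 and 222 CPM in the next 150 and 179, 161 and 162 CPM in the last of the 6 bins. Both were lower in the next 150 spots than in the top 150 of every section. Rorb stood at 61.2, 110.3 and 104 CPM in the top 150 spots and 64.5, 83.1 and 80.6 CPM in the next 150, and was lower there in sections 5 and 6 but not in section 2. Mbp stood at 787, 921 and 1001 CPM in the top 150 spots, 1051, 1253 and 1622 CPM in the next 150 and 2364, 2678 and 3228 CPM in the last of the 6 bins, and was lowest in the first bin of every section.

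**Figure D5:**
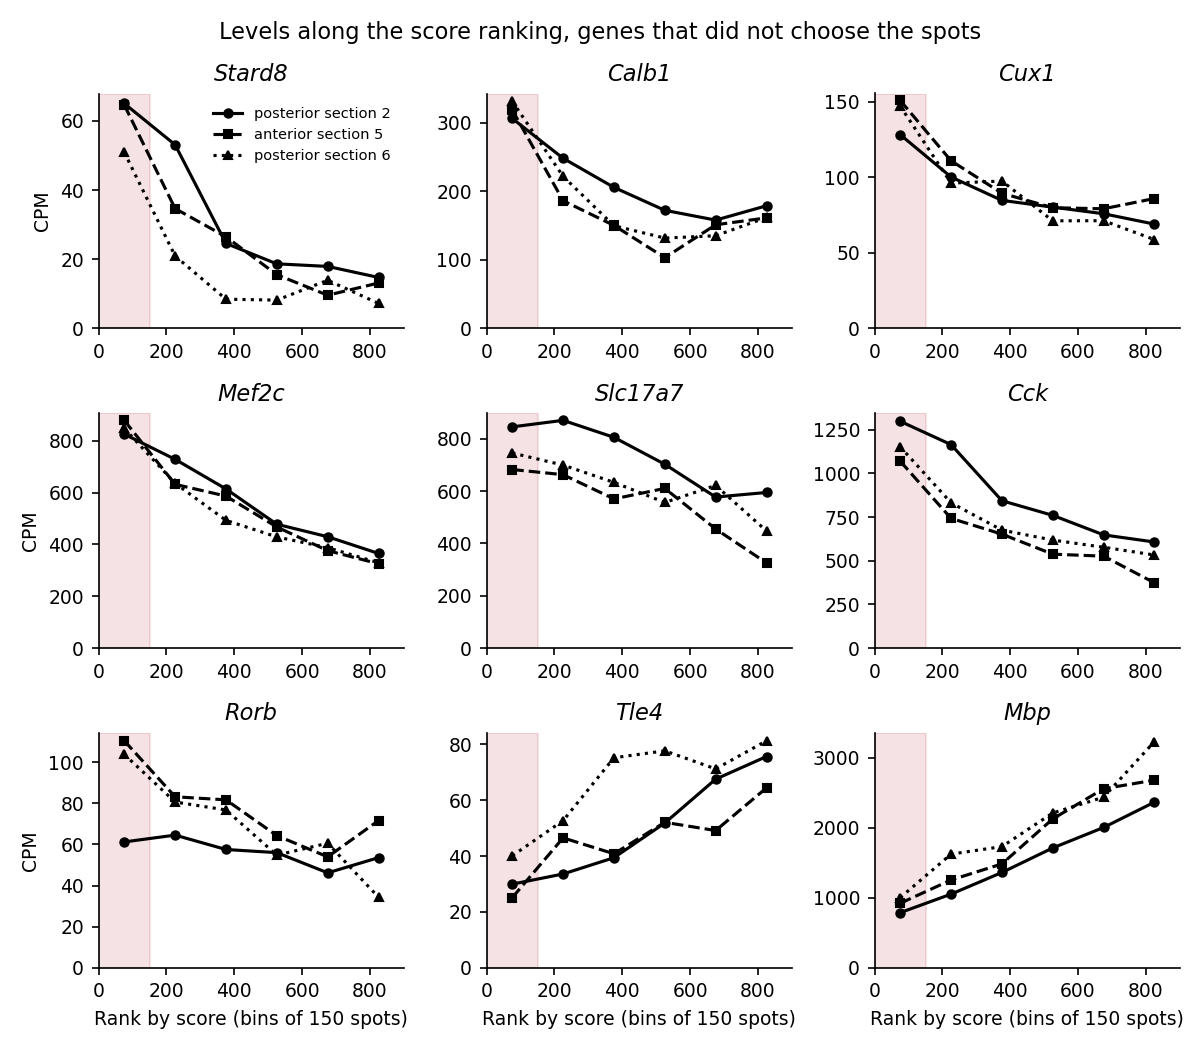
CPM of 9 genes in successive bins of 150 spots by rank of the Lamp5, Rasgrf2 and Cux2 score, with a line for each section. Stard8 and Calb1 are highest in ranks 1 to 150 of all 3 sections, and Mbp is lowest there.

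Within cluster 4, chosen after seeing the data, the 366 upper-layer spots were set against the other spots of the same cluster. Of 10226 genes, 271 were higher and 226 lower in edgeR's quasi-likelihood test with Benjamini-Hochberg adjustment. Of the genes named above against all other spots, 30 kept their direction but did not pass within the cluster, and 13 changed sign, of which Arc, Penk, Rorb and Slc1a2 passed in the opposite direction. The genes named from this comparison were chosen after their values were seen. Gm765 was measured at 22.5, 29.6 and 30.01 CPM in upper-layer spots of cluster 4, against 6.00, 6.30 and 9.48 CPM in the other spots of that cluster (log2 fold change 1.89 ± 0.27, adjusted p = 9.39e-10). Stard8 was measured at 71.5, 72.9 and 52.7 CPM in upper-layer spots of cluster 4, against 32.2, 34.3 and 23.3 CPM in the other spots of that cluster (log2 fold change 1.13 ± 0.15, adjusted p = 4.8e-11). Neither overlapped between the sides. Chrm3 was higher at 0.99 ± 0.15 and Igfn1 at 1.37 ± 0.19. Lower were Whrn, a layer 4 gene, at -1.70 ± 0.22, Crym, a layer 5 gene, at -1.24 ± 0.23, and Rorb at -0.47 ± 0.10, which was higher than in all other spots. The haemoglobin genes were lower too, between -1.42 ± 0.06 for Hba-a1 and -1.73 ± 0.10 for Hbb-bt.

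The share of spots with a count depends on depth, so each spot was thinned to 3000 counts. This left out 1, 1 and 0 upper-layer spots and 26, 315 and 114 other spots with fewer counts. Calb1 was then detected in 57.0%, 58.4% and 61.3% of upper-layer spots, against 32.9%, 29.5% and 29.5% of the other spots and 20.1%, 22.3% and 12.2% of deep-layer spots. In the spots of thalamic cluster 6 its share was 50.5%, 45.5% and 54.3%, near that of the upper-layer spots. Stard8 was detected in 18.8%, 17.4% and 14% of upper-layer spots, against 4.10%, 3.29% and 2.38% of the other spots and 0.485%, 1.59% and 1.62% of the spots of thalamic cluster 6, which serve as background. Vip was detected in 19.5%, 16.1% and 19.3% of upper-layer spots, against 5.55%, 4.501% and 3.73% of the other spots, and Mef2c in 88.6%, 86.6% and 89.3%, against 47.7%, 47.9% and 41.1%. Without thinning Calb1 was detected in 88.0%, 84.0% and 88.0% of upper-layer spots, against 58.1%, 38.3% and 47.4% of the other spots. The shares of Calb1, Stard8, Vip and Mef2c in upper-layer spots lay above those in the other spots in every section. Rorb was detected after thinning in 11.4%, 21.5% and 32.0% of upper-layer spots, against 12.4%, 13.9% and 12.3% of the other spots. Its share was thus not higher in section 2.

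The anterior section had no replicate, so its upper-layer spots were compared with those of both posterior sections without a test. A gene was called past a fold of 2 against each posterior section, with at least 50 counts in the section where it was higher (lower genes: in each posterior section). This gave 4 genes higher (0.0931% of 4295 genes that could pass) and 1 lower (0.0187% of 5357) in the anterior section. Ppp1r12a, a subunit of myosin phosphatase, stood at 52.9 CPM (95% exact Poisson interval 40.3 to 68.3) in the anterior section, against 18.5 (12.4 to 26.5) and 19.7 (13.4 to 28.0) CPM in the posterior sections 2 and 6. Rgs7bp, a binding partner of RGS proteins, stood at 187 CPM (95% exact Poisson interval 163 to 215) in the anterior section, against 83.5 (69.8 to 99.1) and 84.0 (70.3 to 99.6) CPM in the posterior sections 2 and 6. The intervals given here cover counting error only. Genes were picked by the fold of 2, which favours intervals that do not overlap. The transcript Gm26917 stood at 83.4 CPM (95% exact Poisson interval 67.3 to 102) in the anterior section, against 24.9 (17.7 to 34.0) and 31.8 (23.6 to 41.9) CPM in the posterior sections 2 and 6. Gstp1, a glutathione transferase, stood at 44.9 CPM (95% exact Poisson interval 33.3 to 59.1) in the anterior section, against 20.4 (13.9 to 28.8) and 13.999 (8.77 to 21.2) CPM in the posterior sections 2 and 6. Cdc16, a subunit of the anaphase-promoting complex, was lower at 19.7 CPM (95% exact Poisson interval 12.4 to 29.9) in the anterior section, against 41.4 (32.0 to 52.8) and 42.0 (32.5 to 53.4) CPM in the posterior sections 2 and 6. In the other spots the anterior level was 2.43 and 1.21 times that of sections 2 and 6 for Ppp1r12a, 4.64 and 0.79 times for Gm26917, and 2.76 and 1.32 times for Rgs7bp. It was 1.84 and 1.10 times for Gstp1 and 0.913 and 0.91 times for Cdc16. With 300 spots per section none of these 5 genes met the limits, and with 75 spots per section Rgs7bp alone did. Position along the brain and the section itself cannot be told apart here.

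Promoters of the 16 genes among the 12 furthest up in either comparison, 8 of which were among the 12 in both, were read for 3 motifs. RefSeq sequences of build GRCm38.p6, 250 bases up to each start site, were matched for 13 of 16 genes, and Calb1, Chrdl1 and Rassf3 were not matched. A gene was counted if any of its promoters held the motif. The MEF2 motif (CTA and TAG with 4 free bases between them) occurred on either strand in 0 of 13 genes, against 3.70% of all 27025 genes. The EGR motif GCGTGGGCG occurred in 0 of 13, against 0.622%. The E-box CAGATG, bound by NEUROD factors, or its reverse complement CATCTG, occurred in 2 of 13 (15.4%), against 16.3% of all genes, so its share was near the background. The 2 promoters with that E-box are shown so that the match can be read in place, with the E-box in capitals. Tmem215 is on the + strand at chr4:40471930-40472179 and Evc2 on the + strand at chr5:37338228-37338477. A match describes letters and not a bound site.
Tmem215: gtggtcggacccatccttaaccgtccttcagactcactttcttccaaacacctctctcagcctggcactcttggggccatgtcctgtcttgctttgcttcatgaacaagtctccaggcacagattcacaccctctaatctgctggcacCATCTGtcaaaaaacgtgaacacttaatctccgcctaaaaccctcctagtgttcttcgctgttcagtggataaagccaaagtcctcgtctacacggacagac
Evc2: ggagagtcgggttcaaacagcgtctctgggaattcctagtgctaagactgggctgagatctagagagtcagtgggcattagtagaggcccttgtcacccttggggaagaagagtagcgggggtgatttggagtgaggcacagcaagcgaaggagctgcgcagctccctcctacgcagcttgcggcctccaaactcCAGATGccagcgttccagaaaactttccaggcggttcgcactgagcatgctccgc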

How the data were processed

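The spatial data were analysed; the single cells of the series were not used here. Raw counts for 28692 genes in each spot were deposited, with 8714 of the genes at 0 in every spot, and the deposited spot list gives, per the file headers, the section of each spot and its total count. Per the submitters' processing notes, Space Ranger and Seurat were used and the builds NCBIM37 and mm10 are named, without the role of each, and the aligner settings are not given in the sources used here. The files hold no spot positions or region names.

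Spots with at least 1000 counts were scored by the mean log1p counts per 10000 of Lamp5, Rasgrf2 and Cux2 and the top 150 of each section were taken; deep-layer spots were taken likewise by Hs3st4, Fezf2 and Rprm. Raw counts were summed per section and side and tested with edgeR 4.0.16 (R 4.3.3), by its quasi-likelihood F test with TMM scaling, filterByExpr, the section as a block and Benjamini-Hochberg adjustment, at a threshold of 0.05, without the genes that chose the spots. DESeq2 1.42.0 was an alternative. The block pairs both sums of a section. Deviations of same-section sums correlated at 0.206, 0.161 and 0.0517 for the other spots and at 0.203, 0.147 and 0.0569 for deep-layer spots, against a median of -0.0893 and -0.0601 between sections. Clusters came from 2000 variable genes, 30 components, 15 neighbours and Leiden resolution 0.5 (Python 3.11.15, scanpy 1.11.5, igraph 0.11.9). Lamp5, Rasgrf2 and Cux2 were left out of the clustering, but Hs3st4, Fezf2 and Rprm were not. Figures used matplotlib 3.10.9. The fit was also run on simulated counts with 200 changed genes. These counts had a fixed dispersion, above the common dispersion of the data, and no section effect. Error rates in the data themselves were therefore not measured. Promoter sequences came from RefSeq.

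The upper-layer spots and the 35 gene lists were chosen with earlier results of these data known. Lists were set down with symbols of which Nectin3, Lratd2 and Ccn2 are Pvrl3, Fam84b and Ctgf in the table. The named genes are the 12 furthest up and the 12 furthest down by log2 fold change (adjusted p under 0.05, at least 1 on the log2 scale, at least 20 CPM on the higher side, same direction in 3 sections) and from each list up to 4 genes ranked by adjusted p. Further list members named without CPM values were chosen after their values were seen. The text gives the log2 fold change with its SE from the fit over 3 sections a side. The depth of 1114758 to 1571566 counts in the upper-layer spots of a section sets the precision; intervals cover counting error only.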

Additional observations from a re-analysis of the deposited data

How the results depend on the processing

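In all, 125 gene values of the text were recomputed under the alternatives, which gave 2069 further values: 1978 kept their direction and their side of the threshold, 70 kept the direction but no longer passed, and 21 changed sign. Of those that no longer passed, 30 were within cluster 4, 15 after thinning and 5 in DESeq2. Another 4 were with spots ranked without Lamp5, 3 without Rasgrf2 and 3 with 300 spots per section. Not all of them are named above. Without the replicate block, the counts against deep-layer spots were 469 higher and 476 lower, and those against the other spots 1570 and 1601. In DESeq2 the counts were 1277 higher and 1084 lower against the other spots and 231 and 223 against deep-layer spots. Ranked without Lamp5 they were 1370 and 1295, and 459 and 506. Ranked after thinning each spot to 1000 counts, they were 1303 and 1189, and 325 and 233. With 75 spots per section 503 genes were lower than in deep-layer spots. Within cluster 4, an alternative chosen after seeing the data, they were 271 and 226. Leaving out each section in turn gave 1691 to 1738 higher and 1634 to 1700 lower against the other spots, and 525 to 616 and 548 to 589 against deep-layer spots. In the anterior section, where 4 genes were higher and 1 lower, 1 was higher with a minimum of 200 counts and with 75 spots per section, each time 1 of the 4 (Rgs7bp), 1 that was none of the 4 with 300 spots per section, and 3 after thinning, of which 1 was among the 4 (Ppp1r12a). Lower were 0, 2, 0 and 6 genes, with Cdc16 in none of these. For these counts and the signs below, the cause was not tested. Against the other spots, the log2 fold change changed sign within cluster 4 for Arc (-0.24), Cartpt (-0.21), Cxcl14 (-0.13), Egr1 (-0.13), Gfap (0.13), Gria1 (0.015), Grm2 (-0.40), Penk (0.45), Pou3f2 (-0.20), Rorb (-0.47), Rspo1 (-0.42), Slc17a7 (-0.0007) and Slc1a2 (-0.12), of which Arc, Penk, Rorb and Slc1a2 passed in that direction, and for Lmo3 ranked without Lamp5 (0.0093) and after thinning (0.012). Against deep-layer spots chosen by Tle4, Syt6 and Foxp2, sign changed for Neurod6 (0.019), Otof (-0.33), Slc17a7 (0.79) and Tbr1 (0.52). Ptgds changed sign against deep-layer spots after thinning (-0.34) and without spots of cluster 9 (-0.11). The spots taken after thinning shared 54 to 58 of 150 with the first choice. Depth limits the choice itself, which rests on a median of 7, 3 and 2 counts of the 3 genes per spot in section 2.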
